A study of Mus musculus with 179 samples.

Results

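The comparison set 25 single cells with a moderate Tff1 level against 52 single cells with a low one, 77 cells together and 43.02% of all cells of the series. The cells were chosen by their own measured Tff1 level: at least 600 CPM, which is the count of unique molecular identifiers (UMIs, tags that mark single RNA molecules) scaled to a common cell total, for moderate Tff1 cells and under 150 CPM for low Tff1 cells. Only cells with at least 40000 UMIs were placed, which left out 18. Another 4 gastric-like and 6 fibroblast-rich cells were left out by name, and 74 cells between the limits were intermediate; these 5 sets make up the whole series. Moderate and low Tff1 cells are ranges of 1 level, not cell types.

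All cells carried the same labels. They were wild type C57BL6 mouse cells from exocrine pancreas, isolated as acinar cells, grown for 9 days as 3D organoids in Matrigel, a basement membrane gel, and read by Smart-seq3, a plate-based method that counts UMIs. The labels name neither animals nor cultures, so how many there were is not known here, the cells are treated as 1 sample and they are not replicates. Every difference below is a description of these cells, without a test.

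Tff1 encodes a trefoil peptide, a small protein that mucous cells secrete and that acts in the protection and repair of the mucosal surface. Tff1 is made mainly by the surface pit cells of the stomach, Tff2 by mucous cells deeper in gastric glands, and Tff3 mainly by goblet cells of the intestine. Normal acinar cells make digestive enzymes. In culture and after injury they can lose enzyme expression and take on features of duct cells, and mucous and gastric genes are known from metaplastic pancreatic epithelium.

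The Tff1 level, the value that chose the cells, ran from 613 to 5840 CPM with a median of 1246 in moderate Tff1 cells and from 65.6 to 148.1 CPM with a median of 115.1 in low Tff1 cells. Every low Tff1 cell still had Tff1 UMIs, at least 5. The 6 fibroblast-rich cells had a median of 186.3 CPM of Tff1, above the highest low Tff1 cell, so the low range lies at the level of cells rich in another cell type's genes, and how much of it is the cells' own Tff1 RNA was not tested. The gastric-like cells had 6238 to 47145 CPM. The limits cut a continuous range: the cells nearest to the moderate limit had 613 CPM inside it and 589 CPM outside, and those nearest to the low limit had 148.1 CPM inside and 150.7 CPM outside. Within 10% of a limit lay 8 cells at the moderate one and 18 at the low one.

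**Figure D1:**
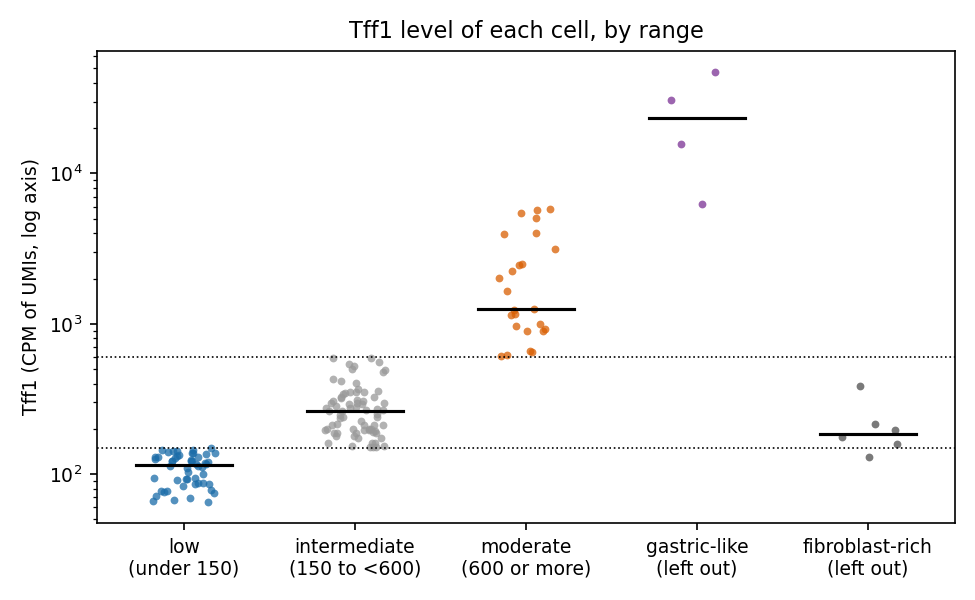
Tff1 level of each cell in CPM of UMIs on a log axis, by range of Tff1, with the gastric-like and fibroblast-rich cells that were left out; a point is a cell, a black line a median and the dotted lines are the limits of 150 and 600 CPM. The medians are 115.1 CPM in low, 264 in intermediate, 1246 in moderate and 23209 in gastric-like cells, and 186.3 in fibroblast-rich cells.

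Depth was similar, with a median of 173522 UMIs and 11673 genes in moderate Tff1 cells and 191630 UMIs and 12245.5 genes in low Tff1 cells. Reads per UMI had a median of 2.19 in moderate and 1.98 in low Tff1 cells. Over blocks of 24 title numbers there were 0 to 7 moderate and 3 to 8 low Tff1 cells, and the block numbered 97 to 120, which was shallow, held no moderate Tff1 cell. Enzyme genes were high in Acinar52 and Acinar155, both moderate Tff1 cells, and did not bear out the acinar label in the others, as given below, whereas the duct keratins Krt7 and Krt19 had UMIs in all 77 cells. Fibroblast, endothelial and immune markers were near 0. The median of the summed fibroblast list was 0 CPM in moderate and 4.13 CPM in low Tff1 cells, with highest cells at 171.8 and 302.5 CPM. The endothelial list stood at 11.01 and 12.02 CPM and the immune list at 0 and 4.45 CPM, in moderate and in low Tff1 cells. The defining immune marker Ptprc had 1 UMI in moderate and 0 in low Tff1 cells. The summed endocrine list was not at 0: its median was 67.5 CPM in moderate and 16.5 CPM in low Tff1 cells, with highest cells at 272 and 283 CPM, and Ins2, an insulin gene, passed the fold. Its part in the results was not tested.

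Most genes stood at like levels in both ranges, and more genes were lower than higher in moderate Tff1 cells. A level is the median CPM over the cells of a range, and a fold compares medians after 5 CPM was added to each. Of 7602 genes other than Tff1 with a median of at least 20 CPM in 1 of the ranges, 394 were at least 1.5-fold higher in moderate Tff1 cells (5.18%) and 978 at least 1.5-fold lower (12.9%). Scaling by scran size factors in place of totals gave 522 higher and 729 lower, so that 41.7% of the called genes were higher, against 28.7% with totals. The median log2 fold over all compared genes was -0.13 with totals and -0.03 with size factors, and list medians below are read against the -0.13. At 4-fold or more there were 34 higher and 64 lower genes. The intermediate cells had a median between those of the 2 ranges for 348 of the 394 higher and 856 of the 978 lower genes. Below, "higher" and "lower" of a gene mean past the 1.5-fold. A gene could pass the 20 CPM floor through the range in which it is high alone, so counts and medians over the listed genes that passed are given with no weight of their own.

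Single cells of the ranges overlapped widely. Over the 1300 pairs of 1 moderate and 1 low Tff1 cell, only 4 genes were higher in the moderate cell in at least 90% of pairs: Anxa10, Serpinb6a, Krt19 and Phgr1. Serpinb6a, a serine protease inhibitor, was named after its values were seen; its median was 416 CPM in moderate and 187.3 CPM in low Tff1 cells, and 91.5% of pairs were higher in the moderate cell. Only Cp and Heg1 were higher in the low Tff1 cell in at least 90% of pairs.

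Among mucous genes, the other trefoil peptides and a few genes that build or hold mucus were higher in moderate Tff1 cells, while no mucin over the floor was. Of the 40 genes of the mucous list, Tff1 itself left out of every list, 39 were in the table and 16 passed the 20 CPM floor. Of these, 6 were higher (Tff3, Tff2, Gcnt3, Fcgbp, B3gnt3 and Qsox1), 1 was lower (Muc20) and 9 were neither. Their median log2 fold was 0.40. Over all compared genes 5.18% were higher and 12.9% lower. The summed level of the list had a median of 3693 CPM in moderate and 2164 CPM in low Tff1 cells, and 77.8% of pairs were higher in the moderate cell.

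Tff3 had 3.50 to 19379 CPM with a median of 509 in moderate Tff1 cells, and 0 to 361 CPM with a median of 43.2 in low Tff1 cells. Thus 13 of the 25 moderate Tff1 cells lay above every low Tff1 cell, and the others overlapped them. The log2 fold of medians was 3.42, and Acinar68 alone held 28.5% of the Tff3 UMIs of the moderate Tff1 cells. Tff2 ran from 0 to 3501 CPM with a median of 298 in moderate Tff1 cells, and from 0 to 1728 CPM with a median of 45.1 in low Tff1 cells. Only 3 moderate Tff1 cells lay above every low one, and the log2 fold was 2.60. The Tff2 difference was not in all title numbers: its log2 fold was -0.16 in cells numbered up to 96 and 3.84 in cells numbered from 97.

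Gcnt3, an enzyme that branches the O-linked sugars of mucins, had medians of 255 CPM in moderate and 92.6 CPM in low Tff1 cells, a log2 fold of 1.42. Fcgbp, a large mucus protein of goblet cells, had 41.6 and 16.7 CPM in moderate and in low Tff1 cells, and Acinar157 held 33.2% of its UMIs among moderate Tff1 cells. B3gnt3, which extends such sugars, had 74.04 CPM in moderate and 38.6 CPM in low Tff1 cells. Qsox1, a secreted sulfhydryl oxidase, had 216 CPM in moderate and 128.4 CPM in low Tff1 cells. In all of these the cells of the ranges overlapped, with 3 to 8 moderate Tff1 cells above every low one. In cells numbered up to 96, Gcnt3 had a log2 fold of 0.52 and Qsox1 of 0.45, neither past the fold. Within the cells numbered 25 to 48 they were at -0.0093 and -0.29. B3gnt3 was at 0.56, not past the fold, with low Tff1 cells under 100 CPM, and Fcgbp stayed at 0.76 or more in every other setting. In the cells numbered 25 to 48, however, B3gnt3 was at 0.30 and Fcgbp at 0.16, neither past the fold.

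Muc1, a membrane mucin of simple epithelia, had 246 to 1295 CPM with a median of 634 in moderate Tff1 cells, and 87.1 to 1109 CPM with a median of 624 in low Tff1 cells. Its cells overlapped almost fully, and 54% of pairs were higher in the moderate cell. Muc20 had a median of 34.3 CPM in moderate and 68.3 CPM in low Tff1 cells; its annotated span overlaps that of Muc4 on the other strand, and the sources used here do not say whether reads were counted by strand. Muc2 and Muc5b, the gel mucins of intestine and airway, had no UMI in either range, which allows 0.657 CPM in moderate and 0.317 CPM in low Tff1 cells. Those limits, like every interval here, cover counting error only.

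Single moderate Tff1 cells carried other mucous genes. Agr2, a chaperone of mucin folding, reached 1626 CPM in Acinar157, which held 94.6% of its UMIs among moderate Tff1 cells, and its median was 0 in both ranges. Clca1, a goblet cell protein, reached 1574 CPM in Acinar68, against at most 30.8 CPM in a low Tff1 cell. Muc5ac, the gel mucin of gastric pit cells, reached 641 CPM in Acinar155 and 578 CPM in Acinar52, whereas its median was 8.97 CPM in moderate and 5.10 CPM in low Tff1 cells.

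Several gastric genes were higher in moderate Tff1 cells, while the genes that mark gastric pit cells were low in both ranges. Of 36 genes on the gastric list, 30 were in the table and 14 passed the floor: 9 were higher (Vsig1, Anxa10, Tff2, Duoxa2, Sult1c2, Mal, Duox2, Ctse and Gkn1) and 1 was lower (Ltf). Their median log2 fold was 1.18, and over all compared genes 5.18% were higher and 12.9% lower. The summed list had a median of 4084 CPM in moderate and 1895 CPM in low Tff1 cells, with 73.1% of pairs higher in the moderate cell.

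Anxa10, an annexin of gastric mucosa, had 31.8 to 2313 CPM with a median of 328 in moderate Tff1 cells, and 0 to 371 CPM with a median of 35.4 in low Tff1 cells. All but 2 moderate Tff1 cells (23 of 25) lay above the upper quartile of the low Tff1 cells, and 8 lay above every one of them. The log2 fold was 3.04, and the gastric-like cells were higher still, at 3672 CPM. Vsig1, a junctional adhesion protein of gastric epithelium, had 0 to 191.4 CPM with a median of 37.8 in moderate Tff1 cells, and 0 to 37.5 CPM with a median of 0 in low Tff1 cells, 19 of which had a Vsig1 UMI. Above all of these low Tff1 cells lay 13 of the 25 moderate ones.

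Ctse, the aspartic protease cathepsin E of gastric surface cells, had medians of 246 CPM in moderate and 114.5 CPM in low Tff1 cells. Mal, a protein of apical membrane traffic, had 327 CPM in moderate and 104.4 CPM in low Tff1 cells. Sult1c2, a sulfotransferase of the stomach, had 209 and 53.95 CPM in moderate and in low Tff1 cells, but its log2 fold was -0.0013 in cells numbered up to 96. Duox2, an epithelial peroxide-producing oxidase, had 173.99 CPM in moderate and 68.4 CPM in low Tff1 cells, and its maturation factor Duoxa2 had 249 and 64.3 CPM. Within blocks of title numbers, however, Duox2 was above the low Tff1 cells in 2 of 5, with log2 folds of -1.46 to 3.32, and Duoxa2 in 4 of 5, with -2.66 to 4.41. Ltf, the iron-binding protein lactoferrin, had 4.63 CPM in moderate and 76.2 CPM in low Tff1 cells, and the list's name does not describe it: it is also a protein of secretory glands and neutrophils.

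The pit-cell gastrokines were far below the level of the gastric-like cells. Gkn1, a secreted protein of gastric pit cells, had 8.71 to 125.5 CPM with a median of 33.7 in moderate Tff1 cells, and 0 to 64.9 CPM with a median of 15.4 in low Tff1 cells; after thinning to 40000 UMIs its log2 fold was 0. Gkn2, its partner, had 5.99 CPM in moderate and 8.45 CPM in low Tff1 cells and did not pass the floor. The gastric-like cells had medians of 13744 CPM of Gkn1, 8549 CPM of Gkn2 and 7292 CPM of Muc5ac, although 1 of the 4 had only 15.1 CPM of Gkn1. For Tff3 the order of the medians was the other way, with 509 CPM in moderate Tff1 cells and 19.01 CPM in gastric-like cells.

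**Figure D2:**
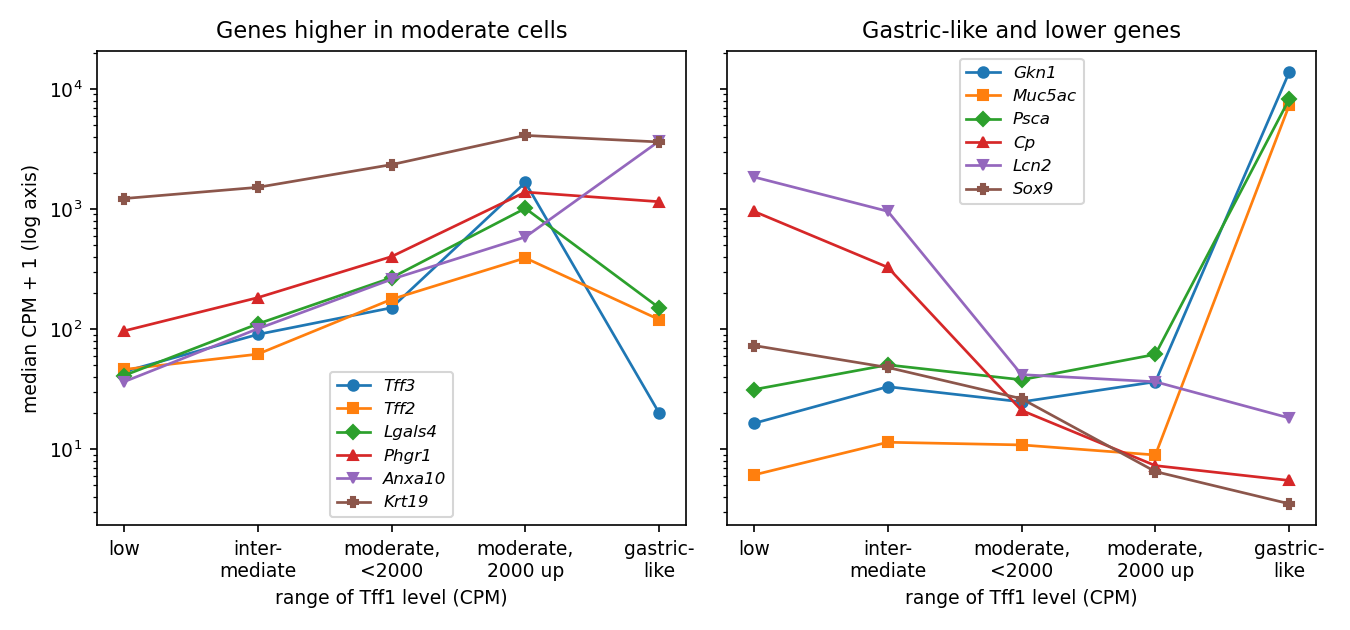
Median CPM plus 1 on a log axis over 5 ranges of Tff1, the moderate range split at 2000 CPM, with 6 genes that were higher in moderate Tff1 cells on the left and 3 pit-cell or gastric genes and 3 lower genes on the right; a point is the median over the cells of a range. Tff3 stands at 43.2 CPM in low Tff1 cells, 1662 CPM in moderate Tff1 cells from 2000 CPM and 19.01 CPM in gastric-like cells, whereas the medians of Gkn1, Muc5ac and Psca are far higher in gastric-like cells than in any other range.

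Duct genes split. The duct keratins Krt19 and Krt7 were higher in moderate Tff1 cells, and several genes of duct secretion and ion transport and the duct transcription factor Sox9 were lower. All 33 genes of the duct list were in the table and 27 passed the floor, of which 5 were higher, 12 were lower and 10 were neither. Their median log2 fold was -0.37, and over all compared genes 5.18% were higher and 12.9% lower. The summed list went the other way, with a median of 27173 CPM in moderate and 21105 CPM in low Tff1 cells, and that sum includes the abundant keratins described next.

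Krt19, a keratin of duct cells, had 995 to 5376 CPM with a median of 2916 in moderate Tff1 cells, and 380 to 3265 CPM with a median of 1221 in low Tff1 cells. Above every low Tff1 cell lay 12 of the 25 moderate ones, and 91% of pairs were higher in the moderate cell. Krt7, its partner in duct epithelium, had a median of 5856 CPM in moderate and 2771 CPM in low Tff1 cells. Krt8 (6909 CPM in moderate and 4651 CPM in low Tff1 cells) and Krt18 (3118 and 2371 CPM) did not pass the fold. Nr1h4, the bile acid receptor FXR, had 40.1 CPM in moderate and 16.2 CPM in low Tff1 cells. Its log2 fold was 0.55 in cells numbered up to 96, not past the fold, and -1.65 in those numbered 25 to 48. Ambp, a secreted protein precursor of liver and duct, and Car2, the carbonic anhydrase of bicarbonate secretion, were just past the fold, with log2 folds of 0.68 and 0.62, and Car2 was at -0.72 in cells numbered up to 96. Ambp went this way in 3 of 5 blocks of title numbers.

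Cp, the copper-carrying ferroxidase ceruloplasmin, was the lowest of all compared genes. It had 0 to 2478 CPM with a median of 8.29 in moderate Tff1 cells, and 7.58 to 4275 CPM with a median of 954 in low Tff1 cells. In words, 23 of 25 moderate Tff1 cells lay below the lower quartile of the low Tff1 cells and 11 lay below every one of them, while 2 stayed among them. The log2 fold was -6.17.

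Sox9, the transcription factor of duct and progenitor cells, had 0 to 658 CPM with a median of 11.5 in moderate Tff1 cells, and 0 to 404 CPM with a median of 71.9 in low Tff1 cells. Cftr, the apical chloride and bicarbonate channel of ducts, had a median of 3.93 CPM in moderate and 37.6 CPM in low Tff1 cells, and 14 of 25 moderate and 42 of 52 low Tff1 cells had a UMI of it. Slc4a4 and Slc12a2, the basolateral bicarbonate and chloride cotransporters, had 88.1 and 137.8 CPM in moderate Tff1 cells, against 174.9 and 251 CPM in low Tff1 cells; within blocks Slc12a2 was lower in only 2 of 5, with log2 folds of -2.17 to 0.82. Spp1, the secreted phosphoprotein osteopontin, had 566 CPM in moderate and 1446 CPM in low Tff1 cells. Bicc1, Glis3, Pkhd1 and Pkd2, genes whose loss gives cystic ducts or kidneys, were also lower, with log2 folds of -1.05, -1.11, -0.70 and -0.61. Of these, Bicc1 was past the fold in all 21 other settings, whereas Pkd2 was not in 9, Glis3 not in 2, with -0.23 in pooled and -0.13 in mean CPM, and Pkhd1 not in 2, with -0.55 and -0.54 at moderate limits of 400 and 1000 CPM.

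**Figure D3:**
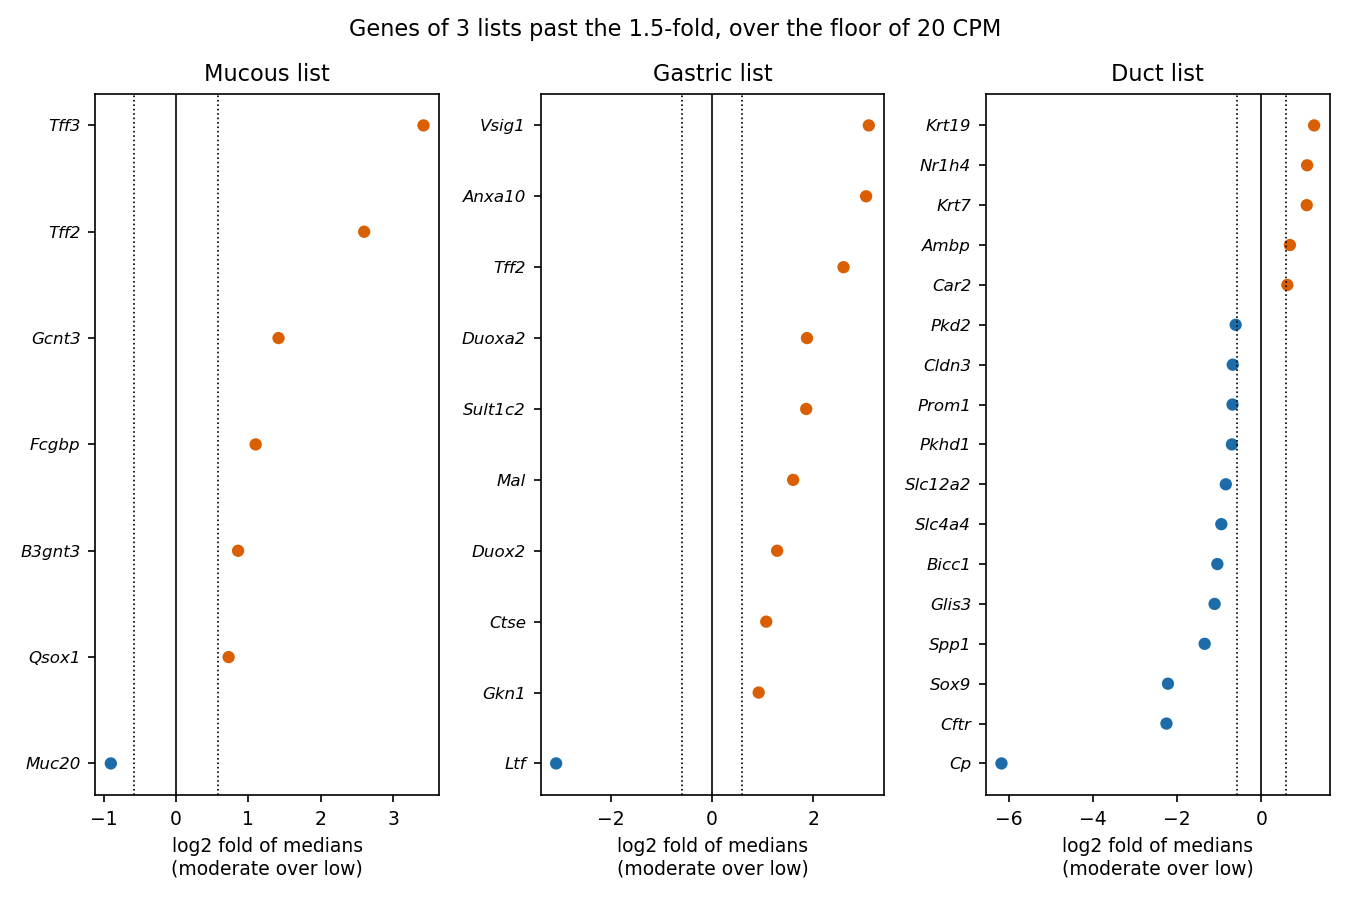
Log2 fold of median CPM, moderate over low Tff1 cells, for the genes of the mucous, gastric and duct lists that passed the floor of 20 CPM and the 1.5-fold (dotted lines); orange points are higher and blue points lower, and genes within the 1.5-fold are not drawn. In the duct list 5 genes are higher and 12 lower, with Cp at -6.17, while the mucous and gastric lists have 1 lower gene each.

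Enzyme genes were low in both ranges. Of 44 enzyme genes, 42 were in the table and 1 passed the floor, the chymotrypsinogen Ctrb1, with a median of 91.1 CPM in moderate and 65.3 CPM in low Tff1 cells, not past the fold. The summed list had a median of 157.3 CPM in moderate and 135.7 CPM in low Tff1 cells. Its highest cells were far apart, however: the list reached 390712 CPM in a moderate Tff1 cell, against at most 425 CPM in a low one. Ctrb1 was at 85203 CPM in Acinar52 and 9670 CPM in Acinar155, both moderate Tff1 cells, and Acinar52 held 89.7% of its UMIs among them. Pooled over cells the list therefore stood at 15874 CPM in moderate (95% Poisson interval 15758 to 15990) and 140.98 CPM in low Tff1 cells (133.5 to 148.8). Ptf1a, the acinar transcription factor, had 29 UMIs in 1 moderate Tff1 cell and none in a low one. Trypsinogen and amylase genes have near-identical copies, so single members are uncertain.

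Intestinal genes that passed the floor were higher in moderate Tff1 cells. Of 18 genes on the intestinal list, 17 were in the table and 6 passed the floor, and all 6 of those were higher: Tff3, Lgals4, Krt20, Phgr1, Cdh17 and Vil1. Their median log2 fold was 3.00. Krt20 passed the floor through the moderate Tff1 cells alone. Over all compared genes 5.18% were higher and 12.9% lower. The summed list had a median of 3143 CPM in moderate and 521 CPM in low Tff1 cells; 18 of 25 moderate Tff1 cells lay above every low one, and 90.9% of pairs were higher in the moderate cell. Cdx2, the intestinal master regulator, had a median of 0 in both ranges, with a UMI in 8 of 25 moderate and 11 of 52 low Tff1 cells.

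Lgals4, a galectin of the intestinal brush border, had 22.9 to 1861 CPM with a median of 419 in moderate Tff1 cells, and 0 to 625.1 CPM with a median of 39.98 in low Tff1 cells. Krt20, a keratin of intestinal epithelium and gastric surface cells, had 0 to 1029 CPM with a median of 136.7 in moderate Tff1 cells, and 0 to 150 CPM with a median of 10.7 in low Tff1 cells. For both, the upper part of the moderate Tff1 cells, 12 and 11 of 25, lay above every low one. Phgr1, a small protein of gut epithelium, had a median of 701 CPM in moderate and 95.5 CPM in low Tff1 cells, with 14 of 25 moderate Tff1 cells above every low one. Cdh17, an intestinal cadherin, had 252 and 121.6 CPM, and Vil1, the microvillus protein villin, 204 and 102.4 CPM, in moderate and in low Tff1 cells. Within the cells numbered 25 to 48, Cdh17 had a log2 fold of -0.62 and Lgals4 of -0.18.

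The 15 genes with the highest folds, all of 5.97-fold or more, were Sytl2, Tff3, Lgals4, Krt20, Gm15318, Vsig1, Cwh43, Anxa10, Sprr1a, Acsbg1, Phgr1, Gm10639, Fgf1, Tff2 and Fam84a. Sytl2, an effector of secretory vesicle docking, had 0 to 338 CPM with a median of 58.1 in moderate Tff1 cells, and 0 to 102.2 CPM with a median of 0 in low Tff1 cells. UMIs of Sytl2 were found in 22 of 25 moderate and 22 of 52 low Tff1 cells. Sprr1a, a cornified envelope protein of squamous epithelium, had 1002 CPM in moderate and 126.8 CPM in low Tff1 cells. Gm15318 is annotated on the strand opposite to Tff1 and overlaps it, so its UMIs, with a median of 39.7 CPM in moderate and 0 CPM in low Tff1 cells, cannot be told apart from Tff1 itself without strand. Gm10639 lies among glutathione transferase genes on chromosome 9 and may share reads with its near copies.

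**Figure D4:**
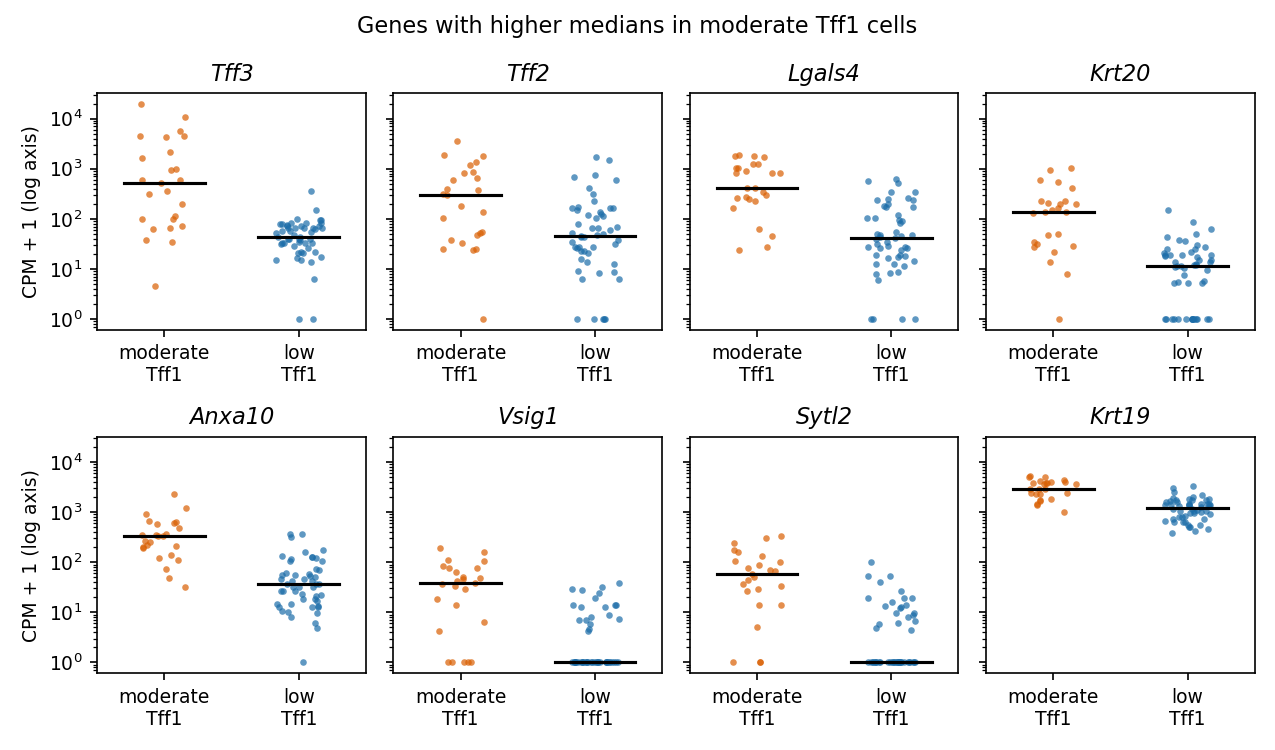
Level of 8 genes in each of the 25 moderate and 52 low Tff1 cells, as CPM plus 1 on a log axis; a point is a cell and a black line the median. The medians of moderate Tff1 cells are above those of low Tff1 cells in all 8 genes, and the cells of both ranges overlap in each.

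The promoters of Anxa10 and Krt20 are shown because both genes were higher in every block of title numbers compared and both promoters hold a TATA box. They run from 250 bases before to 50 bases after the RefSeq start of GRCm38.p6, in chr8:62123144-62123443, minus strand, and chr11:99438104-99438403, minus strand. Capitals mark matches to TATAAA, to the AP-1 letters TGANTCA, the C/EBP letters TTGCNNAA, the GATA letters AGATAA and the TEAD letters GGAATG, on either strand.
Anxa10: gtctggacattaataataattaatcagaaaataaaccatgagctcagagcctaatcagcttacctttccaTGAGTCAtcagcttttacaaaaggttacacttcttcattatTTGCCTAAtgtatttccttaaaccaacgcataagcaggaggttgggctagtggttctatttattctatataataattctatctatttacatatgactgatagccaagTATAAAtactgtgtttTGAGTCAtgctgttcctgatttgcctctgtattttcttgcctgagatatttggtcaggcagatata
Krt20: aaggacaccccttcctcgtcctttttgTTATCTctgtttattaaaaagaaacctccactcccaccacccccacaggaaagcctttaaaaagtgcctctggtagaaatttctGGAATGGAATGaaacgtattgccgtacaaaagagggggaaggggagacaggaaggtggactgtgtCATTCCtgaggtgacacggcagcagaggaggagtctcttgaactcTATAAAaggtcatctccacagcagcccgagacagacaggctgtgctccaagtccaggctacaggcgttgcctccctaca
In Anxa10 the TATA box begins 32 bases and an AP-1 match 16 bases before the start. In Krt20 the TATA box begins 29 bases before it, with 3 TEAD matches farther up. Of all 27025 RefSeq promoters, 14.2% held TATAAA and 7.93% the AP-1 letters. Promoters were found for 288 of the 394 higher and 761 of the 978 lower genes, and for 5699 of the genes compared. TATAAA was in 10.1% of the higher, 5.26% of the lower and 6.47% of the compared promoters, and the AP-1 letters in 10.1%, 3.29% and 4.49%. A match is a run of letters and not a binding site.

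Acute-phase and inflammatory genes were among those farthest lower in moderate Tff1 cells. Of the 27 genes of the injury and inflammation list, 23 passed the floor: 13 were lower, among them Lcn2, C3, Cxcl1, Ltf, Icam1, Cxcl2, Cxcl5, Pigr and Nfkbia, and 4 were higher (Ly6d, Il33, S100a6 and Il1rn), of which Il33 had a log2 fold of only 0.098 in cells numbered up to 96. Their median log2 fold was -0.68, and over all compared genes 5.18% were higher and 12.9% lower. The summed list did not follow, with medians of 25737 CPM in moderate and 26592 CPM in low Tff1 cells, and it includes abundant members such as Clu (6041 and 7998 CPM) and S100a6 (5724 and 2789 CPM).

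Lcn2, the iron-scavenging acute-phase protein lipocalin 2, had 6.99 to 3859 CPM with a median of 37.02 in moderate Tff1 cells, and 11.4 to 7406 CPM with a median of 1846 in low Tff1 cells. Most moderate Tff1 cells, 21 of 25, lay below the lower quartile of the low ones, and the low Tff1 cells also held a few cells with little Lcn2. C3, the central complement component, had 0 to 1387 CPM with a median of 19.5 in moderate Tff1 cells, and 0 to 2471 CPM with a median of 434 in low Tff1 cells. Cxcl1, a neutrophil-attracting chemokine, had 0 to 655 CPM with a median of 11.98 in moderate Tff1 cells, and 0 to 1250 CPM with a median of 188.3 in low Tff1 cells. For C3 and Cxcl1, 23 and 20 of 25 moderate Tff1 cells lay below the lower quartile of the low ones.

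Related genes went with them over all compared cells, though not all of them in every block of title numbers. Cxcl5, a chemokine of the same cluster on chromosome 5, had 170 CPM in moderate and 757 CPM in low Tff1 cells. Nfkbia, the NF-kB inhibitor that NF-kB itself induces, had 86.5 CPM in moderate and 238 CPM in low Tff1 cells. Trf, the iron carrier transferrin, and Lbp, which binds bacterial lipopolysaccharide, had medians of 0 in moderate Tff1 cells, against 70.9 and 50.7 CPM in low Tff1 cells. Igfbp7, a secreted binding protein, had 33.1 CPM in moderate and 452 CPM in low Tff1 cells, and Fn1, fibronectin, had 0 and 50.5 CPM. Fn1 and Igfbp7 are also fibroblast genes; the summed fibroblast list is given above, and its part in these values was not tested. Heg1, a membrane protein of cell junctions, had a UMI in 9 of 25 moderate and 50 of 52 low Tff1 cells. Against these, Ly6d (803 CPM in moderate and 258 CPM in low Tff1 cells) and Il1rn, the interleukin 1 receptor antagonist (771 and 397 CPM), were higher. Within the cells numbered 25 to 48 some went the other way, with log2 folds of -1.29 for Ly6d, 2.55 for Fn1, 1.43 for Trf and 0.60 for Igfbp7. Cxcl5, Nfkbia, Lbp, Heg1 and Il1rn kept their direction there.

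**Figure D5:**
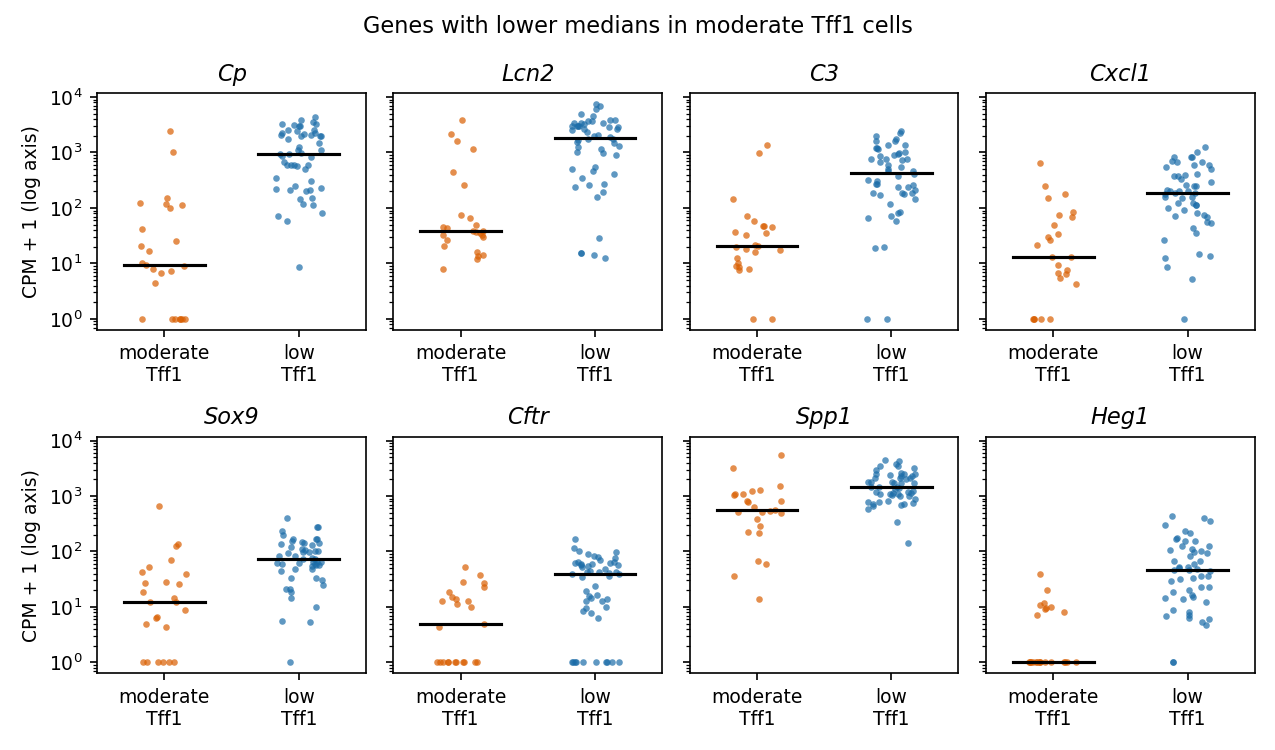
Level of 8 genes in each of the 25 moderate and 52 low Tff1 cells, as CPM plus 1 on a log axis; a point is a cell and a black line the median. A few moderate Tff1 cells lie among the low Tff1 cells in Cp, Lcn2 and C3, and several cells of both ranges have no UMI of Sox9 or Cftr.

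The promoters of Lcn2 and Cxcl1 are shown for the lower genes, with the same window and build, in chr2:32387690-32387989, minus strand, and chr5:90890995-90891294, plus strand. Capitals mark a C/EBP match in Lcn2, and in Cxcl1 matches to the HNF4 letters CAAAGTCC, the FOXA letters TGTTTNC and the NF-kB letters GGGANTTNC, on either strand.
Lcn2: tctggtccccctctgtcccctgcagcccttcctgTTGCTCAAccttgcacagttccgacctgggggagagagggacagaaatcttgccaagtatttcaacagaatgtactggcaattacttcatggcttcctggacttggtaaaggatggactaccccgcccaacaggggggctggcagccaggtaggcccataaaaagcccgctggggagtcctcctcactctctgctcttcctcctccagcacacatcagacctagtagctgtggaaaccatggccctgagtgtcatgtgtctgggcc
Cxcl1: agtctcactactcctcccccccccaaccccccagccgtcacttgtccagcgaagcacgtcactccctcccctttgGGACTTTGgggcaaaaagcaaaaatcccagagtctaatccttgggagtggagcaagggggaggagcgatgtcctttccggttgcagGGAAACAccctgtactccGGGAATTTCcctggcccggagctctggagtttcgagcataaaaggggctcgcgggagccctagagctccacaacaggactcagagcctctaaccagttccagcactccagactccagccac
The NF-kB match of Cxcl1 begins 71 bases before the start. These NF-kB letters were in 4.17% of the higher, 6.57% of the lower, 4.95% of the compared and 4.35% of all promoters. The HNF4 letters were in 4.17% of the higher, 0.788% of the lower, 1.18% of the compared and 1.44% of all promoters. The C/EBP letters were in 9.38%, 7.49%, 7.63% and 10.8% of the same 4 sets.

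Most listed genes of cell division had lower medians in moderate Tff1 cells, but the size of the difference changed with the choice of cells. The G2/M list had 17 of 24 genes over the floor, of which 15 were lower and none was higher, with a median log2 fold of -1.18; its summed median was 587 CPM in moderate and 1742 CPM in low Tff1 cells, and 64.3% of pairs were higher in the low cell. Its log2 fold of -1.56 was -0.77 without Acinar52 and Acinar155, -0.60 by the mean over cells and -0.15 with low Tff1 cells under 100 CPM, and it was above 0 in 2 of 5 blocks of title numbers, at 0.57 and 0.88. Mki67, a protein of dividing cells, had 0 to 512 CPM with a median of 19.7 in moderate Tff1 cells, and 0 to 524 CPM with a median of 105.8 in low Tff1 cells, so that dividing cells were present in both. Of 17 S phase genes over the floor, 11 were lower. Beside the counts of both lists, 12.9% of all compared genes were lower and 5.18% higher. The sign of the summed S phase list changed with the choice of cells. Its log2 fold was -0.87 over all cells and 0.0145 without Acinar52 and Acinar155. Among the 11 moderate and 13 low Tff1 cells whose G2/M list was under 500 CPM, a limit chosen after the values were seen, 12 of the 15 highest and 9 of the 15 lowest genes had a log2 fold as far from 0 as over all cells or farther. Those genes were chosen over all compared cells, which include this subset, so the counts have no weight of their own. Tff3 was at 3.92, Lgals4 at 4.90, Cp at -7.52 and Lcn2 at -5.84 in the cells with the low G2/M list. The other 3 and 6 genes were nearer to 0, among them Sprr1a at 2.62, C3 at -3.97, Ltf at -1.93 and Nsl1 at 0.

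The YAP list holds targets of YAP, a transcriptional coactivator of growth and stretch, and also its DNA-binding partner Tead1. Of its 13 genes over the floor 7 were lower, Tead1 among them, 5 were neither and 1, the tissue factor gene F3, was higher. Their median log2 fold was -0.70. Ankrd1 had 89.9 CPM in moderate and 678 CPM in low Tff1 cells, and Ccn1 had 27.7 and 163.9 CPM. Of 14 early response genes 6 were lower and 1 was higher, with Atf3 at 8.97 CPM in moderate and 67.5 CPM in low Tff1 cells. The higher one was Klf4, a factor of epithelial differentiation, with 183.5 CPM in moderate and 106.6 CPM in low Tff1 cells. Of 6 interferon and antigen presentation genes over the floor, 3 were lower and none was higher. Beside these counts, 12.9% of all compared genes were lower and 5.18% higher.

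Of 8 squamous-type genes over the floor, 5 were higher (Sprr1a, Sprr2a1, Sprr2a3, Sfn and Krt23), none was lower and 3 were neither. The summed list had a median of 2745 CPM in moderate and 1376 CPM in low Tff1 cells. Sprr2a1 and Sprr2a3 are near copies, so their own values are uncertain. In cholesterol synthesis 5 of 17 were higher, among them Msmo1 with 176.1 CPM in moderate and 75.99 CPM in low Tff1 cells and Hmgcs1 with 398 and 204 CPM, and none was lower. The shares over all compared genes were 5.18% higher and 12.9% lower. Glutathione transferases Gsta1 (1309 CPM in moderate and 282 CPM in low Tff1 cells) and Gsta2 (173.1 and 32.6 CPM) were higher and are also near copies, while Gpx2, a glutathione peroxidase of gut epithelium, was lower (121.9 and 342 CPM).

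Some lists differed little in their summed level. Their log2 folds were -0.16 for the unfolded protein response, 0.05 for the secretory pathway, 0.08 for foregut and -0.0015 for acinar transcription factors. Single genes could still pass the fold, as 5.18% of all compared genes were higher and 12.9% lower. None of 15 unfolded protein response genes over the floor and 1 of 18 secretory pathway genes, Sytl2, passed the fold in either direction. Of 14 foregut transcription factors over the floor, 3 were higher, Elf3 with 143.1 CPM in moderate and 63.9 CPM in low Tff1 cells, Tfcp2l1 and Klf4, and 2 were lower, Prox1 and Ehf. Hnf4a, shared by liver, gut and pancreas, had 170 CPM in moderate and 142.1 CPM in low Tff1 cells, and Pdx1, the pancreas and duodenum factor, had 17.9 and 20.5 CPM; neither passed the fold. Of 5 acinar transcription factors over the floor only Mecom was higher, with 27.3 CPM in moderate and 4.85 CPM in low Tff1 cells.

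The trefoil genes lie side by side on chromosome 17, all on the minus strand in GRCm38: Tff3 at chr17:31125306-31129646, Tff2 at chr17:31141049-31144282 and Tff1 at chr17:31161395-31165277. The next genes outward were low in both ranges. Abcg1 beyond Tff3 had 3.28 pooled CPM in moderate and 5.61 in low Tff1 cells. Tmprss3 beyond Tff1 had 8.10 pooled CPM in moderate and 1.48 in low Tff1 cells, with a UMI in 16 of 25 and 6 of 52 cells, under the floor. Farther out, Slc37a1 had a median of 45.6 CPM in moderate and 30.1 CPM in low Tff1 cells and did not pass the fold.

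Across the 52 low, 74 intermediate and 25 moderate Tff1 cells together, the genes whose level was most like that of Tff1, by Spearman's rho over 8058 genes with a mean of at least 20 CPM, were Tff3 (0.61), Anxa10 (0.58), Phgr1 (0.55), Fam3b (0.53), Lgals4 (0.53), Krt19 (0.51), Rflnb (0.50), Mgst3 (0.50), Sdcbp2 (0.50) and Syt8 (0.48). The lowest were Stox2, Cp, Scara3, Heg1 and Tmem176b, from -0.54 to -0.52. The cells are treated as 1 sample, and Tff1 itself had a rho of -0.13 with depth. Mgst3, a microsomal glutathione transferase, had 26.9 to 982 CPM with a median of 218 in moderate Tff1 cells, and 8.65 to 176.01 CPM with a median of 73.2 in low Tff1 cells. As many as 19 of 25 moderate Tff1 cells lay above every low one for Mgst3, more than for Tff3.

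The moderate Tff1 cells were not alike. Of the 15 highest genes, the median number above the upper quartile of the low Tff1 cells was 3 in a low, 6 in an intermediate and 12 in a moderate Tff1 cell, with a range of 4 to 15 among moderate Tff1 cells. Of the 15 lowest genes, a moderate Tff1 cell had a median of 14 below the median of the low Tff1 cells (range 5 to 15), against 7.5 in a low Tff1 cell. Both sets of genes were chosen on the same cells. The upper quartile and the median are those of the low Tff1 cells themselves, which largely sets the counts in low Tff1 cells. The gaps between the ranges therefore have no weight of their own. Acinar43 and Acinar46, both close to the limit with 613 and 646 CPM of Tff1, had 4 of the 15 highest genes each and kept the acute-phase genes, with 2478 and 1031 CPM of Cp and 3859 and 2179 CPM of Lcn2. Without them, an alternative chosen after the values were seen, the log2 fold was 3.62 for Tff3 and -6.21 for Cp. Acinar157 and Acinar163 had 1585 and 1156 CPM of Lcn2 with high trefoil levels, 3501 CPM of Tff2 in Acinar157 and 4272 CPM of Tff3 in Acinar163.

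Trefoil genes ran together only in part within the moderate Tff1 cells, where Tff2 and Tff3 had a Spearman's rho of 0.34. Single cells departed from this. Acinar68 had 5048 CPM of Tff1 with 19379 CPM of Tff3, whereas Acinar155 had 5720 CPM of Tff1 with 62.7 CPM of Tff3, and Acinar38 had 923 CPM of Tff1 with 3.50 CPM of Tff3. Within the 25 moderate Tff1 cells, Spearman's rho of Tff1 was 0.76 with Phgr1, 0.64 with Krt19, 0.61 with Lgals4, 0.49 with Tff3, 0.46 with Tff2, 0.03 with Gkn1 and -0.54 with Mki67. Tff3 had a rho of 0.60 with Lgals4 and -0.17 with Anxa10, so the genes did not form 1 order even within these cells.

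In the 5 blocks of title numbers that held at least 3 cells of both ranges, 10 of the 15 highest and 10 of the 15 lowest genes went the same way in every block. These genes were chosen on the same cells, so their agreement over blocks has no weight of its own. Gm15318, which cannot be told apart from Tff1 without strand, is among the highest genes counted. Tff3 had block log2 folds of 0.99 to 7.19, Anxa10 of 1.75 to 3.57, Krt20 of 0.97 to 3.52, Cp of -7.40 to -1.50 and Lcn2 of -6.92 to -1.44. Lgals4 ran from -0.18 to 4.99 and Tff2 from -1.28 to 6.01, both with 1 block of the other sign. The summed mucous, gastric and intestinal lists also had 1 such block each, at -0.43, -0.58 and -0.099. The blocks are runs of cell numbers, and the sources used here do not say what they were in the laboratory.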

How the data were processed

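RNA of single cells was read by Smart-seq3. The authors deposited a table of raw UMI counts and a table of raw read counts, with a row per cell and 32100 Ensembl identifiers, per the file headers. The aligner STAR, the counter featureCounts and the genome builds mm10 and GRCm38 are listed without versions, per the submitters' processing notes; UMI collapsing, strand and gene filters are not given in the sources used here. Each row was matched to its cell by name, and no 2 cells were identical.

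UMI counts were scaled to CPM of each cell's total. Cells were placed by the limits given above, and the cells, gene lists and limits were chosen with earlier results of these data known. A level is a median over cells. The fold of medians used an added 5 CPM, a floor of 20 CPM in 1 range and a call at 1.5-fold. Pooled CPM have exact 95% Poisson intervals, and 0 UMIs allow up to 3; both cover counting error only. The cells compared had 42594 to 329522 UMIs each. On simulated cells with no difference some genes still passed the fold, so the counts past it are not counts of genes that differ. Named genes were drawn from the mucous, gastric, duct and enzyme lists, the 15 highest and 15 lowest folds and the 10 highest and 5 lowest by likeness to Tff1. Others are markers of other cell types, neighbours of Tff1 and genes of the other lists over the floor. From those lists the text names more than the 3 highest and 3 lowest first planned, so no fixed rule set that choice. Some genes of these lists are counted but not reported here by name. Doublets were not searched for, since the labels call every sample a single cell.

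Other settings were read counts, pooled and mean CPM, other added CPM, floors, folds, totals and limits, scran size factors, thinning, title numbers up to 96 or from 97 and leaving cells out. Calculations used pandas 2.3.3, numpy 2.4.6 and scipy 1.17.1 in Python 3.11.15, figures matplotlib 3.10.9, and size factors scran 1.30.0 in R 4.3.3.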

Additional observations from a re-analysis of the deposited data

Results flagged for a closer look

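Among the 6 fibroblast-rich cells, which were left out of the comparison, Acinar188 had a Tff1 level of 387 CPM, far from the other 5. The median of all 6, Acinar188 included, was 186.3 CPM. It was picked out because its gap to the nearest of the others took up most of the group's range. Chance picks out about 1 in 20 groups in this way.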

How the results depend on the processing

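Of 79 named genes followed over 21 other settings, 4 of 1659 values changed sign, all in cells numbered up to 96: Tff2 at -0.16, Sult1c2 at -0.0013, Car2 at -0.72 and Cldn3 at 0.10. Counting these, 70 values in 21 genes were no longer past the fold. The summed S phase list changed sign to 0.044 with moderate Tff1 cells from 400 CPM, 0.28 in cells numbered up to 96 and 0.0145 without Acinar52 and Acinar155. The enzyme list moved to a log2 fold of 6.77 pooled and 6.81 by the mean over cells, which Acinar52 and Acinar155 set.

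The counts of genes higher and lower were 949 and 1877 after thinning to 40000 UMIs, 848 and 1986 with no floor, 243 and 444 with a floor of 50 CPM, 150 and 300 at 2-fold, and 840 and 2271 in cells with a G2/M list under 500 CPM, where the gastric list stood at 2.23. Higher genes numbered 626 with moderate Tff1 cells from 1000 CPM and 703 in cells numbered from 97. Pooled CPM gave 555 higher and 868 lower. Of the 394 higher and 978 lower genes, 388 and 717 were shared with the calls under scran size factors, and 299 and 676 after thinning. The cause of these moves was not tested, apart from the floor and the fold, which change how many genes can pass.

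Leaving out 1 cell at a time gave 378 to 434 higher and 861 to 1044 lower genes, and log2 folds of 0.76 to 0.79 for the mucous, 1.08 to 1.27 for the gastric, 0.32 to 0.40 for the duct and 0.20 to 0.24 for the enzyme list; 0 of 6083 gene values changed sign. The mucous list was at 0.10 in cells numbered up to 96 and 1.45 with moderate Tff1 cells from 1000 CPM, and the gastric list at 0.49 and 1.70. No paired analysis was possible because all cells carry the same labels and their numbers pair nothing. Depth limits genes under 20 CPM, where 1 UMI in a median moderate Tff1 cell is a large share of the level.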

Other observations

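Insulin transcripts, which mark beta cells of the islets, were found at low levels in both ranges. Ins2 was past the 1.5-fold, with a median of 34.8 CPM in moderate and 12.04 CPM in low Tff1 cells, with a UMI in 22 of 25 and 32 of 52 cells, and Ins1 had 13.8 and 3.80 CPM, with a UMI in 19 of 25 and 28 of 52 cells. Gcg, the glucagon gene, had no UMI in either range, and Chga, a granule protein of endocrine cells, had 1 UMI in moderate and 0 in low Tff1 cells. These genes were named after their values were seen.

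Ligands of the EGF receptor and their feedback genes were split. Of 13 genes of that list over the floor, 4 were higher in moderate Tff1 cells (Emp1, Areg, Erbb3 and Phlda1) and 3 were lower (Etv5, Hbegf and Ier3). Areg, the ligand amphiregulin, had a median of 392 CPM in moderate and 192.4 CPM in low Tff1 cells. Of 6 progenitor markers over the floor 3 were lower, among them Sox4 with 77.1 CPM in moderate and 219 CPM in low Tff1 cells, and Aldh1a1, a retinaldehyde dehydrogenase, was higher with 28.8 and 13.4 CPM. Of 19 matrix and adhesion genes over the floor 2 were higher, among them the integrin chain Itga6, and 4 were lower, among them Timp3, with a median of 0 CPM in moderate and 23.6 CPM in low Tff1 cells. Over all 7602 genes compared 5.18% were higher and 12.9% lower, so counts in such short lists have no weight of their own.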
